A study of Mus musculus with 48 samples.

Results

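The 10 genes described here are Bok, Nectin3, Coch, Prkcd, Ly6g6e, Vgll3, Mndal, Cd109, Qpct and Shisa2, taken as markers of hippocampal field CA3 or as genes that part CA3 from other fields or its dorsal from its ventral pole. They were chosen from measured values of this series, by contrasts that involve CA3, and are 10 of 37620 genes counted. The series profiled 16 populations of mouse hippocampal neurons by RNA sequencing, with 3 libraries per population (48 libraries). Pyramidal cells came from dorsal and ventral CA3 and from 10 CA1 populations: dorsal, intermediate, ventral, proximal, distal, superficial and deep cells, dorsal cells projecting to the postsubiculum, and ventral cells projecting to the amygdala or to the nucleus accumbens. The other 4 populations were granule cells from the dorsal and the ventral dentate gyrus (DG) and CA1 interneurons of the PV (parvalbumin) and SST (somatostatin) types. All populations were fluorescent cells picked by hand from dissected slices, with no treatment named. Strain, age, sex and the reporter or tracer behind the fluorescence are not given in the sources used here, and neither is the number of animals per library, so that p-values reflect no more than the spread of these samples. Each library is a pool of cells, in which fewer cells of a type and less RNA per cell cannot be told apart.

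CA3 pyramidal cells receive the mossy fibres of DG granule cells, excite each other through recurrent axons, and send the Schaffer collaterals to CA1. Their dorsal and ventral poles belong to differently connected parts of the hippocampal long axis, the dorsal part best known for spatial memory and the ventral part for emotional behaviour. Mossy cells, which lie in the hilus next to CA3, are excitatory too.

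Levels are CPM, the usual read counts scaled to the reads in genes of each library, with library sizes adjusted by the TMM method, and libraries are listed in the order of replicates 1, 2 and 3. Reads in genes ranged from 5116568 to 31984948 per library, and from 21491589 to 30931038 in CA3. The CA3 marker Grik4, a kainate receptor subunit, was read in both poles (dorsal CA3 79.9 ± 20 CPM, ventral CA3 69.2 ± 8.67 CPM, SD, n = 3), whereas Iyd, an iodotyrosine deiodinase, had 48.6 ± 7.85 CPM in dorsal CA3 but 0.526 ± 0.0714 CPM at the ventral pole. The 3 CA3 markers summed to 185 to 208 CPM in dorsal and to 103 to 160 CPM in ventral CA3. They also ran high outside CA3, at 113 to 134 CPM in amygdala-projecting and 76.6 to 105 CPM in accumbens-projecting CA1. Their sums therefore do not part ventral CA3 from these cells. Ventral CA3 carried markers of mossy cells: all 3 listed were read, with sums of 78.5 to 386 CPM against 0 to 3.8 CPM in dorsal CA3. It also held 119 to 196 CPM of the 5 CA2 markers, against 23.7 to 30.4 CPM in dorsal CA3. Ventral CA3 replicate 3 stood apart from the other 2 ventral libraries, and the members' folds and shares at the ventral pole are given with and without it. In deep CA1 the 5 GABAergic markers summed to 269 to 697 CPM, and in accumbens-projecting CA1 to 1.1 to 590 CPM.

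Promoter sequence was available for 7 of the 10 members (9 start sites) in RefSeq on GRCm38.p6, which is not the build named for the deposited files. The 250 bases before the start are shown, 5′ to 3′ on the gene's strand, for the 3 members that were higher in ventral CA3 and for Prkcd, the member most restricted to CA3. Capitals mark matches, on either strand, to TATAAA, to CANNTG (the E-box), to TGACGTCA (the CRE), to CCAAT, to GGGCGG (the GC box) or to CATTCC (the TEAD element). The positions are chr16:65814939-65815188 on the plus strand for Vgll3, chr12:51593091-51593340 on the plus strand for Coch, chr14:59625031-59625280 on the plus strand for Shisa2, and chr14:30626209-30626458 on the minus strand for the first Prkcd start.
Vgll3: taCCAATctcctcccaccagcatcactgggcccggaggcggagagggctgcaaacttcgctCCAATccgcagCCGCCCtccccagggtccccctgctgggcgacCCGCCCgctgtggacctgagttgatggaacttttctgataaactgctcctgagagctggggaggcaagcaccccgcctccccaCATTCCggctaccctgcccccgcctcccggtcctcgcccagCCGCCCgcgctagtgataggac
Coch: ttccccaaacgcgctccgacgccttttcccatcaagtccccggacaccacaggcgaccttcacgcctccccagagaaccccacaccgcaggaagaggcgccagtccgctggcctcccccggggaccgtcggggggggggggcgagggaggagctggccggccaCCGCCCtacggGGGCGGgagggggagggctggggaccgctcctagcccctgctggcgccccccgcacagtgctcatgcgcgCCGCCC
Shisa2: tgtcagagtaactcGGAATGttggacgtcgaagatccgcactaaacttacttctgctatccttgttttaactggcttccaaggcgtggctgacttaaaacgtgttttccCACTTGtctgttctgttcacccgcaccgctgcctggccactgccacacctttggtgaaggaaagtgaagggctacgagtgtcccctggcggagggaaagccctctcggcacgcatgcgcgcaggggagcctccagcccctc
Prkcd: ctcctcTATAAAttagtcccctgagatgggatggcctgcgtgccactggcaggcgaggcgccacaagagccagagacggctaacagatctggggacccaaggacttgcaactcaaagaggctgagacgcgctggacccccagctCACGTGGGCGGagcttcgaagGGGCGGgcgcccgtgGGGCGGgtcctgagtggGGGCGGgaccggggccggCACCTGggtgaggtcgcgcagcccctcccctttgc

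The Vgll3 stretch held 3 GC boxes, 2 CCAAT boxes and 1 CATTCC, and that of Coch 3 GC boxes only. The Shisa2 stretch held 1 E-box and 1 CATTCC. The Prkcd stretch held 4 GC boxes, 2 E-boxes and 1 TATAAA, and an E-box and a GC box shared a base in it. None of the 4 held TGACGTCA. Of 32851 promoters of the same length, 32.7% held a GC box, 33.8% a CCAAT box, 66.2% an E-box, 12.6% CATTCC, 12.4% TATAAA and 1.55% TGACGTCA. GC content was 66.8% for Vgll3, 74.8% for Coch, 56% for Shisa2 and 67.6% for Prkcd, against a median of 52.4% over all promoters. The motifs were chosen after the files were seen, and a match is a description of these letters.

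**Figure D1:**
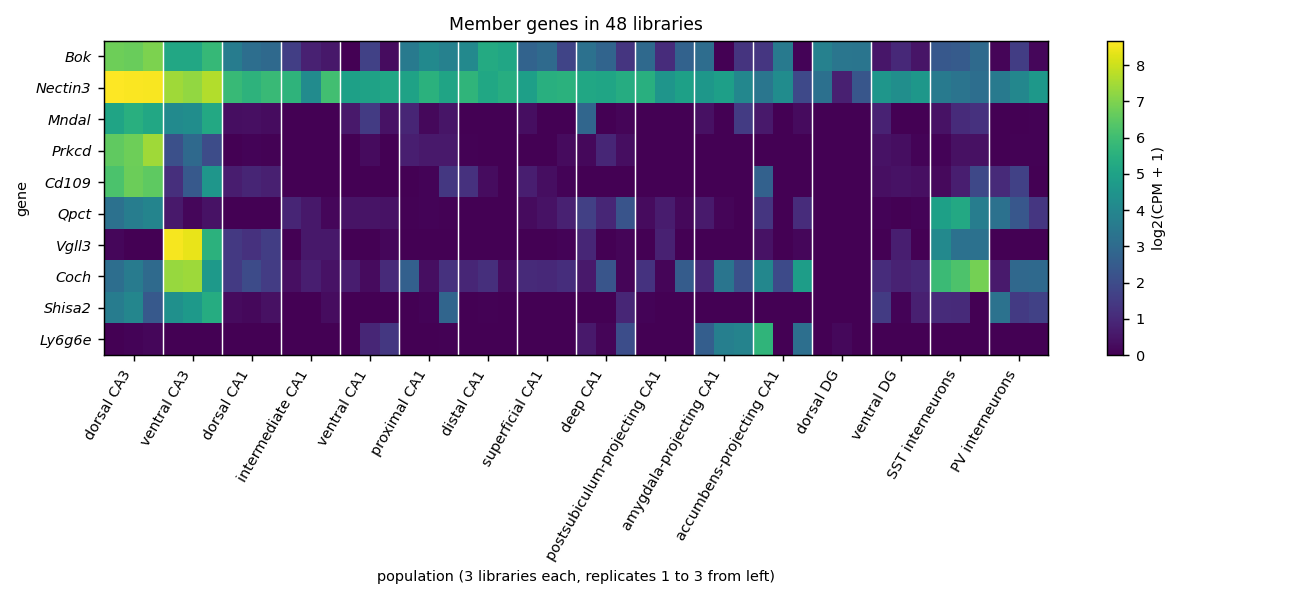
Levels of the 10 genes as log2(CPM + 1) (colour) in 48 libraries, 3 per population in replicate order from the left. Nectin3 and Bok were read widely with their highest libraries in CA3, Prkcd reached at most 0.896 CPM outside CA3, and Ly6g6e was read in projection-defined CA1 cells and hardly in CA3.

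Of the 10 genes, 8 had their highest mean in a CA3 population, as the label says, while Qpct was highest in SST interneurons and Ly6g6e in accumbens-projecting CA1. Over the summed means of the 16 populations, dorsal and ventral CA3 together held 98.8% of the Prkcd signal, 94.7% of Vgll3, 93.9% of Cd109, 91.1% of Mndal, 81.9% of Shisa2, 62.1% of Bok, 58.8% of Nectin3, 51.3% of Coch and 24.7% of Qpct. For Ly6g6e the share was 0.159%. Without ventral replicate 3 the share was 59% for Coch, 96.2% for Vgll3 and 79.2% for Shisa2, and for the other members it moved from 62.1% to 61.2% (Bok), from 58.8% to 58.3% (Nectin3), from 91.1% to 90.1% (Mndal) and from 93.9% to 93.5% (Cd109) or not at all. The CA3 libraries of Nectin3, Prkcd and Mndal all lay above every one of the 42 other libraries, while 1 other library lay above the lowest CA3 library for Bok, 2 for Shisa2, 5 for Cd109, 6 for Coch, 16 for Vgll3 and 23 for Qpct. These values chose the members and are given as a description, with no test.

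Among the adhesion, surface and secreted proteins, Nectin3 was the most widely read. It encodes an immunoglobulin-like adhesion molecule of synaptic and other cell junctions. It was read at 407, 392 and 387 CPM in dorsal CA3 and at 173, 153 and 201 CPM in ventral CA3. The poles did not overlap and differed 2.24-fold, or 2.42-fold without ventral replicate 3. The next population, dorsal CA1 (57.1, 47.9 and 58.4 CPM), lay below both. Every one of the 48 libraries held reads of Nectin3, and the lowest population was dorsal DG at 8.17, 0.68 and 3.95 CPM. In CA1 populations other than the projection-defined ones, means ran from 31.7 to 54.5 CPM and neighbours in the order overlapped.

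Cd109, a membrane-anchored relative of alpha-2-macroglobulin that binds TGF-beta and its receptors, was read at 73.1, 105 and 90.9 CPM in dorsal CA3. In ventral CA3 it was read at 1.25, 4.37 and 22.3 CPM, all below dorsal CA3. Replicate 3 supplied most of that ventral level: without it the mean fell from 9.3 to 2.81 CPM, and the dorsal excess rose from 9.62-fold to 31.8-fold. Outside CA3 only accumbens-projecting replicate 1 passed 5 CPM, at 5.41 CPM, with no read in the other 2 libraries of that population.

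Coch encodes cochlin, a secreted matrix protein known from the inner ear. It had a ventral CA3 level of 160, 168 and 25 CPM and a dorsal CA3 level of 7.71, 11.2 and 6.91 CPM. The poles did not overlap, and the ventral excess was 13.7-fold with all libraries and 19-fold without ventral replicate 3. SST interneurons, at 59.6, 75.8 and 116 CPM, overlapped ventral CA3 only through ventral replicate 3 and lay 9.72-fold above dorsal CA3. Accumbens-projecting CA1 came next, at 15.1, 2.86 and 27.7 CPM. Its replicate 3, the highest, also held 516 CPM of Sst, against 5.75 and 0.367 CPM in replicates 1 and 2. The part of GABAergic cells in that level was not tested. No dorsal DG library held a read of Coch.

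Ly6g6e, of the Ly6/uPAR family of small surface proteins, went against the label. Dorsal CA3 held 3 reads of it in all, 0, 0.0483 and 0.105 CPM, and ventral CA3 none, where 3 reads per library, the limit that a count of 0 allows, come to 0.116 CPM. Amygdala-projecting CA1 held 5.08, 12.5 and 13.8 CPM and accumbens-projecting CA1 49.9, 0 and 7.95 CPM. All amygdala-projecting libraries lay above the ventral CA1 libraries (0, 0.916 and 1.62 CPM), by 12.4-fold in the mean, while accumbens-projecting replicate 2 held no read. Endothelial markers were also higher in the projecting cells: they summed to 38.5 to 100 CPM in amygdala-projecting (3 of 4 markers read), to 12 to 54.4 CPM in accumbens-projecting (3 of 4) and to 0 to 3.93 CPM in ventral CA1 (2 of 4). Their part in the Ly6g6e level was not tested. Deep CA1 held 0.512, 0.0815 and 3.17 CPM, and 9 populations held no read. Ly6g6e overlaps the neighbouring Ly6g6d on the opposite strand in the GENCODE vM21 annotation, so without a known strand in counting the reads of both cannot be told apart.

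Of the signalling and processing proteins, Prkcd was the most restricted. It encodes protein kinase C delta, a calcium-independent isoform activated by diacylglycerol. Dorsal CA3 held 93.1, 107 and 173 CPM and ventral CA3 3.3, 6.86 and 3.03 CPM, with no overlap and a 28.4-fold difference in the mean, 24.5-fold without ventral replicate 3. Proximal CA1 came next, at 0.67, 0.494 and 0.51 CPM. Of the 16 populations, 5 held no read of it, dorsal DG and all 3 projection-defined CA1 populations among them.

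Bok, a member of the BCL2 family of apoptosis regulators, was read at 106, 103 and 123 CPM in dorsal CA3 and at 35.4, 36.1 and 55.4 CPM in ventral CA3. The poles did not overlap and differed 2.6-fold, or 3.09-fold without ventral replicate 3. Distal CA1, at 16.1, 38.8 and 33.9 CPM, overlapped ventral CA3. The lowest 4 populations in the order, intermediate CA1, ventral CA1, PV interneurons and ventral DG, each had a mean of at most 1.08 CPM.

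Shisa2, an endoplasmic reticulum protein that retains FGF and Frizzled receptors, was read at 19.5, 24.6 and 40.3 CPM in ventral CA3 and at 11.5, 14.9 and 4.34 CPM in dorsal CA3. The poles did not overlap, and the ventral excess was 2.75-fold, or 2.15-fold without ventral replicate 3. PV interneurons followed at 8.73, 1.77 and 2.23 CPM, overlapping dorsal CA3. In proximal CA1 replicate 3 alone carried the gene, at 6.03 CPM against 0 and 0.0494 CPM.

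Qpct encodes glutaminyl-peptide cyclotransferase, which forms the pyroglutamate end of secreted peptides, and was not highest in CA3. SST interneurons held 29.4, 37 and 11.8 CPM, dorsal CA3 8.41, 11.8 and 14 CPM, PV interneurons 8.37, 4.06 and 1.6 CPM and ventral CA3 0.502, 0.12 and 0.344 CPM. Dorsal CA3 overlapped SST interneurons and lay above every PV and ventral CA3 library. Between the poles of CA3 the dorsal excess was 35.4-fold, or 36.7-fold without ventral replicate 3. Of the 5 GABAergic markers, 3 were read in dorsal CA3, with sums of 4.97 to 15.8 CPM. Most of that was Sst, at 15.3, 4.97 and 9.68 CPM, with at most 0.268 CPM of Pvalb, at most 0.214 CPM of Gad1 and no read of Gad2 or Slc32a1. In ventral CA3, the lower pole for Qpct, the sums were 0.0401 to 0.46 CPM (3 of 5 read). The part of GABAergic cells in the Qpct level of dorsal CA3 was not tested. Deep CA1, the next population after PV interneurons at 2.11, 0.896 and 3.74 CPM of Qpct, held 26.4, 56.9 and 119 CPM of Gad1.

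**Figure D2:**
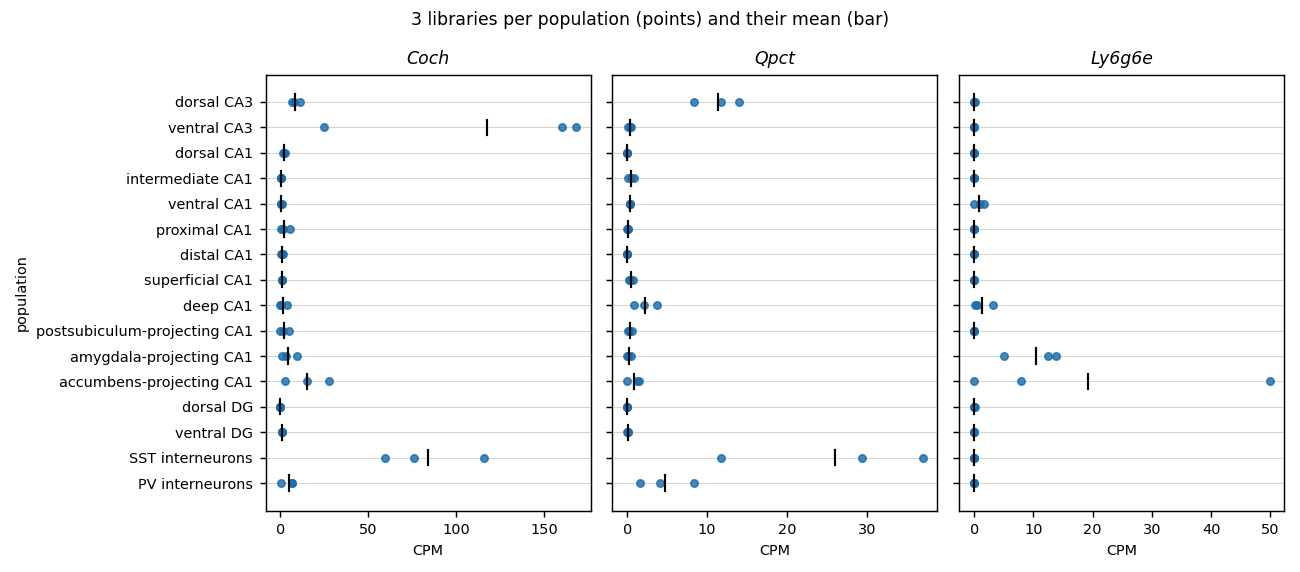
CPM of Coch, Qpct and Ly6g6e in each of the 16 populations (points are 3 libraries, bars their mean, linear axes). Coch was shared by ventral CA3 and SST interneurons, Qpct by SST interneurons and dorsal CA3, and Ly6g6e was carried by amygdala- and accumbens-projecting CA1 cells, with 1 accumbens-projecting library at 49.9 CPM and another at 0.

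The nuclear members were Vgll3 and Mndal. Vgll3, a vestigial-like cofactor of the TEAD transcription factors, was read at 377, 330 and 46.6 CPM in ventral CA3, while dorsal CA3 held 2 reads in all (0.107, 0 and 0 CPM). The ventral level was 6990-fold higher with a counting interval of 1930 to 57700 (95% exact binomial, for counting error only). Without ventral replicate 3 it was 10300-fold higher (2860 to 85300). SST interneurons held 15.8, 8.44 and 8.36 CPM and dorsal CA1 1.71, 1.38 and 2 CPM, each apart from the population below it. No read fell in PV interneurons, dorsal DG, proximal CA1, distal CA1 or amygdala-projecting CA1.

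Mndal belongs to the interferon-inducible PYHIN family of DNA-binding proteins. It was read at 32.3, 43 and 35.7 CPM in dorsal CA3 and at 16.8, 18.2 and 36.8 CPM in ventral CA3, where replicate 3 overlapped the dorsal libraries. Without that library the poles did not overlap and differed 2.12-fold. Outside CA3 a single deep CA1 library, replicate 1, held 6.21 CPM, and the other 2 held 0 and 0.0813 CPM. Mndal overlaps its paralog Ifi203 on the same strand in the GENCODE vM21 annotation, so the split of reads between both is uncertain.

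Along the long axis of CA3, all 3 dorsal libraries lay above all 3 ventral ones for 5 members (Nectin3, Cd109, Prkcd, Bok and Qpct), and all ventral above all dorsal for 3 (Coch, Vgll3 and Shisa2). Mndal overlapped, and Ly6g6e was under the level of 3 reads per library at both poles. The share of all genes whose libraries part in this way is not given here. Over all genes tested, 4.97% were called between the poles at an adjusted p under 0.05, which is a different measure. This contrast was used to choose members, so the counts of members are a description only. On the log2 scale the edgeR difference of dorsal from ventral CA3 was 1.19 ± 0.34 (SE) for Nectin3, 1.4 ± 0.5 for Bok, 4.84 ± 0.54 for Prkcd, -3.75 ± 0.57 for Coch and -1.44 ± 0.78 for Shisa2. Without ventral replicate 3 these differences were 1.3, 1.65, 4.64, -4.23 and -1.08, in the same order. For Cd109 it was 3.28 ± 0.71, and 5.01 without ventral replicate 3, and for Mndal 0.65 ± 0.75, and 1.11 without it.

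**Figure D3:**
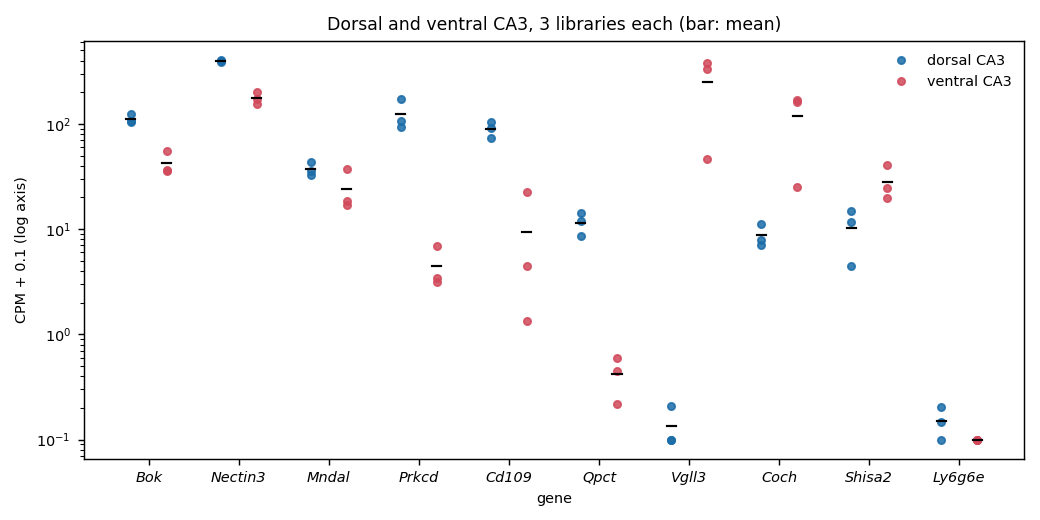
CPM + 0.1 on a log axis for the 10 genes in dorsal (blue) and ventral (red) CA3, with 3 libraries each as points and the mean as a bar. Prkcd and Qpct were 28.4-fold and 35.4-fold higher in dorsal CA3, Vgll3 had 2 dorsal reads in all, and 1 ventral point of Mndal lay among the dorsal ones.

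Between genes, levels were compared per transcript length, in FPKM. In dorsal CA3 the order was Nectin3 (143 ± 3.82 FPKM, SD, n = 3), Bok (85.7 ± 8.52), Prkcd (61.1 ± 24.7), Mndal (19.4 ± 3.06) and Cd109 (17.3 ± 3.02), the last 2 with overlapping ranges. In ventral CA3 Vgll3 (79.5 ± 56.4 FPKM), Nectin3 (62.8 ± 8.62) and Coch (52.8 ± 36) led, with overlapping ranges, and Prkcd stood at 2.34 ± 1.27 FPKM. That overlap rested on replicate 3 for Vgll3, which held 119 and 104 FPKM in replicates 1 and 2 and 14.9 FPKM in replicate 3. In replicates 1 and 2 Coch held 72 and 75.2 FPKM and Nectin3 62.1 and 54.5 FPKM, so that without replicate 3 the order was Vgll3, Coch and Nectin3, with ranges that did not overlap. Prkcd then stood at 2.62 FPKM.

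Ventral CA3 replicate 3 differed from replicates 1 and 2 in several members at once. It held 0.132 times the mean of the other 2 libraries for Vgll3 and 0.152 times for Coch, but 7.92 times for Cd109, 2.11 times for Mndal and 1.83 times for Shisa2. Nectin3 (1.23 times), Bok (1.55 times) and Qpct (1.11 times) moved less. The mossy cell markers moved in the same library: Calb2 was read at 77.4, 121 and 323 CPM, Drd2 at 0.543, 2.89 and 31.1 CPM and Csf2rb2 at 0.502, 5.29 and 32.2 CPM. Of the CA2 markers, Amigo2 (180, 159 and 55.3 CPM) and Rgs14 (10.7, 5.74 and 3.99 CPM) were lowest in it, whereas Pcp4 (4.35, 11.3 and 59.2 CPM) was highest, and Map3k15 and Cacng5 reached at most 0.543 CPM. Of the CA3 markers, Socs2 (77.8, 80.9 and 42 CPM) and Grik4 (68.7, 78.1 and 60.8 CPM) were lowest in it, and Iyd stood at 0.46, 0.602 and 0.516 CPM. Vgll3 and Coch were thus lowest in the ventral library with the most mossy cell marker reads. The part of mossy cells, or of CA2 cells, in the levels of any member was not tested.

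**Figure D4:**
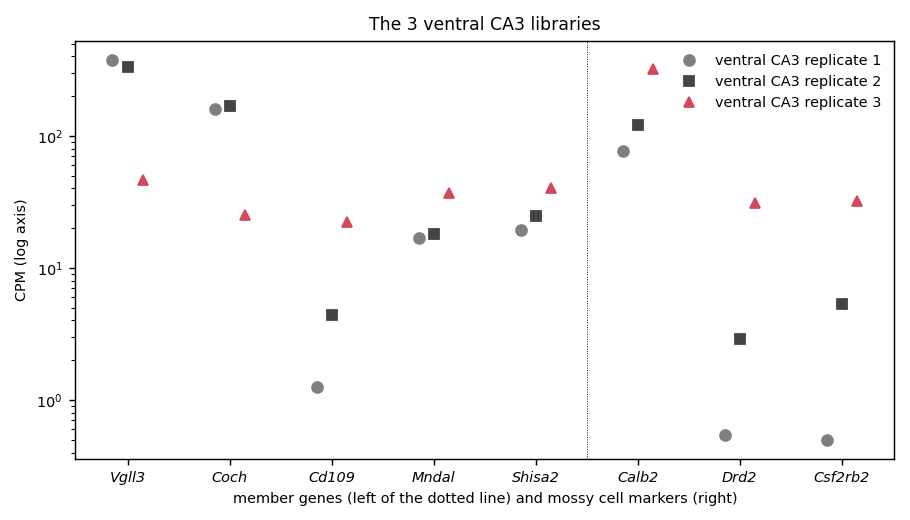
CPM on a log axis in the 3 ventral CA3 libraries for 5 members (left of the dotted line) and 3 mossy cell markers (right), with replicate 3 as red triangles. Replicate 3 was the lowest for Vgll3 and Coch and the highest for Cd109, Mndal, Shisa2 and the 3 markers.

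The contrasts below compare populations other than CA3. The members were chosen with the same CA1 and DG libraries in view. In dorsal against ventral CA1, 4 of the 10 members had enough reads to be tested, and 2 were called, both higher in dorsal cells. Of all genes tested, 15.1% were called in either direction and 7.17% as higher in dorsal cells. Bok, Coch and Vgll3, however, passed the filter on low counts of this fit only through the dorsal libraries. A dorsal direction was thus favoured in advance, and the count is no result about the members. Bok was read at 11.4, 7.78 and 6.87 CPM in dorsal and at 0, 2.2 and 0.231 CPM in ventral CA1, without overlap. It rose by 3.49 ± 0.99 on the log2 scale towards dorsal CA1 (edgeR adjusted p = 0.0198), but not without dorsal replicate 1 (adjusted p = 0.0899) or ventral replicate 3 (adjusted p = 0.0793), with a range of 0.000754 to 0.113 over 11 alternatives. Vgll3, with 1.71, 1.38 and 2 CPM in dorsal CA1 and 1 read in all in ventral CA1, was 36.7-fold higher in dorsal cells with a counting interval of 6.46 to 1460 (edgeR adjusted p = 0.0378). Its call was lost in each of the 6 fits that left out a library (adjusted p = 0.0749 to 0.131). Nectin3 (1.72-fold higher in dorsal cells, edgeR adjusted p = 0.149) and Coch (3.56-fold, edgeR adjusted p = 0.308) did not pass, although neither overlapped. Markers of other cells also differed between the CA1 poles. Fibroblast and mural markers summed to 254 to 423 CPM in ventral and 5.5 to 9.6 CPM in dorsal CA1. CA3 markers summed to 20.7 to 40.8 against 2.58 to 3.32 CPM, and GABAergic markers to 15.2 to 21.3 against 0 to 1.41 CPM. Mossy cell markers went the other way, at 0.231 to 0.916 against 1.39 to 4.46 CPM. The part of these cells in the Bok and Vgll3 levels was not tested.

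Between dorsal and ventral DG, 19.4% of all genes were called in the fit of 18 libraries (8.71% dorsal, 10.6% ventral). In that fit the CA3 libraries carried members through the filter on low counts that CA1 and DG alone would not have kept. A fit of the 12 CA1 and DG libraries alone, added after the data were seen, tested 4 members: Bok, Nectin3, Coch and Vgll3. The other 6 did not pass its filter, and tests are given for these 4 only. In the fit of 12, 15.4% of all genes were called between the poles of DG.

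Bok was again dorsal, at 13.2, 9.65 and 9.4 CPM against 0.446, 0.985 and 0.4 CPM (log2 difference 4.18 ± 0.62, edgeR adjusted p = 7.06e-05, and 0.0179 in the fit of 12). Nectin3 was ventral, at 22.8, 18.3 and 22.9 CPM against 8.17, 0.68 and 3.95 CPM in dorsal DG (log2 difference -2.27 ± 0.39, edgeR adjusted p = 0.000339, and 0.0111 in the fit of 12). Both pairs of groups were free of overlap, and in the fit of 18 neither call was lost without any single library.

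Coch was read at 1.12, 0.788 and 0.971 CPM in ventral DG. Dorsal DG, where 3 reads came to 0.398 CPM, held no read of it, so against 3 reads per library Coch was at least 2.41-fold higher in ventral DG (edgeR adjusted p = 0.00507, and 0.0244 in the fit of 12). A fit of all 48 libraries ended that call (adjusted p = 0.0637). Vgll3, without a read in dorsal DG and with a mean of 0.219 CPM in ventral DG, did not pass (edgeR adjusted p = 0.309, and 0.247 in the fit of 12). Shisa2, with 1.84, 0.0657 and 0.685 CPM in ventral and no read in dorsal DG, is given as values only.

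Markers of other cells differed between the poles of DG as well. The 3 CA3 markers, all read at both poles, summed to 37.8 to 48.6 CPM in ventral and 6.93 to 27 CPM in dorsal DG. These markers were also high in amygdala- and accumbens-projecting CA1 and are not confined to CA3. Markers of fibroblasts and mural cells summed to 71.4 to 98.7 CPM (4 of 4 read) against 1.5 to 4.02 CPM (3 of 4). The mossy cell markers summed to 4.51 to 5.39 CPM in ventral DG (2 of 3 read) and had no read in dorsal DG. GABAergic markers were lower in ventral DG, at 41.9 to 63.2 CPM against 88.5 to 107 CPM (3 of 5 read at each pole). The part of these cells in the differences of Nectin3, Coch and Bok was not tested.

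Nectin3 thus lay on opposite sides in both fields, although its CA1 difference did not pass. The difference between the dorsal-ventral contrasts of CA1 and DG was tested after the Nectin3 values had been seen. In the fit of 18 libraries 9.71% of all genes were called in that interaction and 5.09% in the direction of a more dorsal balance in CA1 than in DG, and in the fit of 12 libraries 7.18% and 3.64%. For Nectin3 the difference was 3.03 ± 0.52 on the log2 scale (edgeR adjusted p = 0.000725, and 0.0216 in the fit of 12). Coch also passed (edgeR adjusted p = 0.00307, and 0.0308 in the fit of 12), but had no read in dorsal DG, so that the fitted size of its difference is no bound, and a fit of all 48 libraries ended its call (adjusted p = 0.0556). Vgll3 did not pass (edgeR adjusted p = 0.0673, and 0.0951 in the fit of 12). For Bok, dorsal in CA1 and DG, the difference was -0.58 ± 0.9 and did not pass (edgeR adjusted p = 0.762, and 0.844 in the fit of 12).

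**Figure D5:**
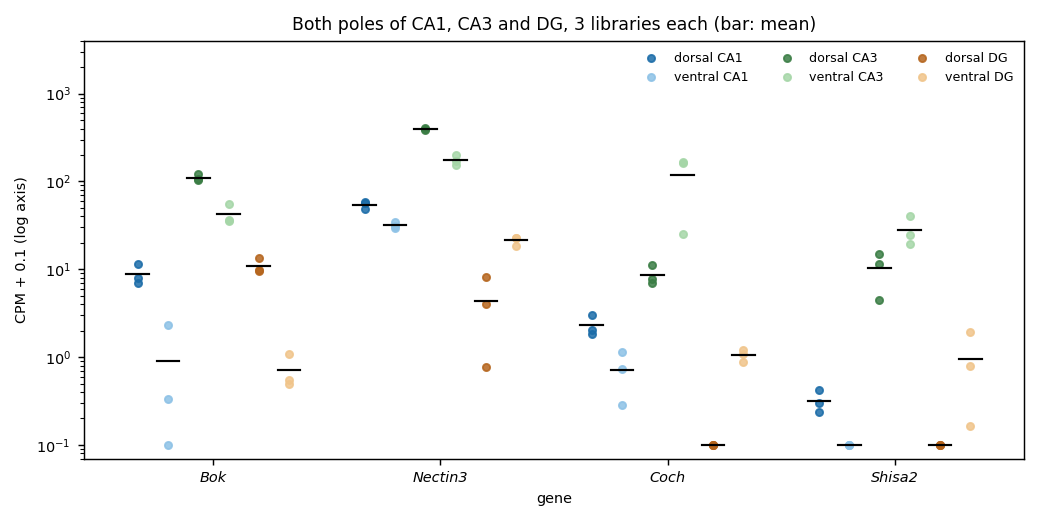
CPM + 0.1 on a log axis for Bok, Nectin3, Coch and Shisa2 in the dorsal (dark) and ventral (light) cells of CA1 (blue), CA3 (green) and DG (brown), with 3 libraries each and the mean as a bar. Bok was higher in dorsal cells of all 3 fields, whereas Nectin3 was higher in dorsal CA1 and CA3 but in ventral DG.

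Averaged over both poles, 33.1% of all genes were called between CA1 and DG in the fit of 18 libraries, 17.4% as higher in CA1, and 30% and 15.1% in the fit of 12. Nectin3 was 2.11 ± 0.26 higher in CA1 on the log2 scale (edgeR adjusted p = 1.95e-06, and 0.000566 in the fit of 12). Coch was 3.86 ± 0.92 higher (edgeR adjusted p = 0.00317, and 0.0209 in the fit of 12), and in the fit of 18 no single library decided either call. For Bok the difference was -0.05 ± 0.46 (edgeR adjusted p = 0.964, and 0.998 in the fit of 12) and for Vgll3 2.94 ± 2.46 (edgeR adjusted p = 0.388, and 0.271 in the fit of 12). Of the members too low for the fit of 12, Mndal was read at 0.227 to 1.83 CPM in the 6 CA1 libraries and in 1 of 6 DG libraries, and Cd109 at 0.635 to 0.842 CPM in dorsal CA1, at 0.279 to 0.328 CPM in ventral DG and in no library of ventral CA1 or dorsal DG.

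Within CA1 no member was called in any of 4 further contrasts with edgeR. The shares of genes called are those of edgeR at an adjusted p under 0.05. None is given for DESeq2 or for an unadjusted p, so member counts by these are no result about the members. Between proximal and distal cells, where 1.06% of genes were called, 0 of 4 members tested passed with either edgeR or DESeq2 and 2 had an unadjusted p under 0.05. These were Bok, 2.21-fold higher in distal cells (edgeR adjusted p = 0.223), and Prkcd, with 1 read in all in distal cells (edgeR adjusted p = 0.207). Between superficial and deep cells (2.48% of genes called) 0 of 4 passed with edgeR and 1 with DESeq2, and 1 had an unadjusted p under 0.05: Qpct, at 0.204, 0.332 and 0.74 CPM in superficial and 2.11, 0.896 and 3.74 CPM in deep cells (edgeR adjusted p = 0.352).

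Between amygdala- and accumbens-projecting cells (0.0231% of genes called) 0 of 4 members passed with edgeR or DESeq2, and 0 had an unadjusted p under 0.05. For Ly6g6e the difference was -0.87 ± 1.39 on the log2 scale (edgeR adjusted p = 0.886). Between postsubiculum-projecting and dorsal CA1 cells (10.8% of genes called) 0 of 5 passed with edgeR, 1 with DESeq2, and 2 had an unadjusted p under 0.05. Nectin3 was 1.72-fold lower in the projecting cells, without overlap (edgeR adjusted p = 0.113). Cd109 had no read in them and 0.635 to 0.842 CPM in dorsal CA1, which made it at least 3.35-fold lower (edgeR adjusted p = 0.0603). Of the members named for these contrasts within CA1, Prkcd, Qpct and Cd109 passed the filter on low counts only through the group in which each was higher.

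Interneurons were read against each other and against dorsal CA1. Between PV and SST cells 2 of 7 members tested were called, both higher in SST cells, where 6.15% of genes were called and 3.53% as higher in SST cells. Coch stood at 0.558, 6.64 and 6.77 CPM in PV cells against 59.6, 75.8 and 116 CPM in SST cells, 18-fold apart (edgeR adjusted p = 0.00369). Vgll3 had no read in PV cells and was at least 94-fold higher in SST cells (edgeR adjusted p = 0.000697). Qpct was 5.58-fold higher in SST cells without overlap, but did not pass (edgeR adjusted p = 0.0752). With DESeq2 5 members were called in place of 2. The share of all genes called by that tool is not given here, so this count is no result about the members. Markers of several other cells were higher in SST cells too. The 3 CA3 markers summed to 20.7 to 50.2 CPM in SST and to 7.22 to 18.7 CPM in PV cells (2 of 3 read in each). The 2 excitatory markers summed to 18 to 59.4 CPM in SST and to 1.21 to 2.27 CPM in PV cells. The mossy cell markers summed to 33.4 to 52.3 CPM in SST (3 of 3 read) and to 0.313 to 11.2 CPM in PV cells (2 of 3), and CA1 pyramidal markers to 230 to 350 CPM against 93.3 to 134 CPM (4 of 5 read in each). Markers of oligodendrocytes (49.6 to 693 against 5.01 to 33.5 CPM) and of microglia (16.7 to 52.2 against 0.313 to 5.16 CPM), with 4 of 4 read in each, also did not overlap. The part of these cells in the Coch, Vgll3 and Qpct levels was not tested.

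Against dorsal CA1, the mean of both interneuron types differed in 4 of 7 members tested, 2 in each direction, where 32.7% of genes were called (17.3% higher and 15.4% lower in interneurons). Qpct had no read in dorsal CA1, which made it at least 219-fold higher in SST and at least 39.3-fold higher in PV cells (edgeR adjusted p = 6.54e-05 for their mean). It passed the filter on low counts only through the interneuron libraries. That direction was thus favoured in advance, and its call is given as a description. Coch was also higher (edgeR adjusted p = 0.00218). Nectin3 was lower, at 10.8, 8.99 and 7.73 CPM in SST and 11, 15.2 and 23.8 CPM in PV cells (edgeR adjusted p = 8.96e-05). Vgll3 was called lower in that mean (edgeR adjusted p = 0.0159), but not in the fit of all 48 libraries (adjusted p = 0.103), and the types went opposite ways.

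Each type was therefore also compared on its own, after the values had been seen. In PV cells 4 of 7 members were called (29.7% of genes, 16.3% higher and 13.4% lower): Qpct higher, and Bok, Nectin3 and Vgll3 lower. In SST cells 4 of 7 were called as well (27.4% of genes, 15.6% higher and 11.9% lower): Coch, Qpct and Vgll3 higher and Nectin3 lower. Both counts include Qpct, which passed the filter on low counts only through interneuron libraries. Vgll3 was at least 14.7-fold lower in PV cells (edgeR adjusted p = 0.000478) and 6.41-fold higher in SST cells (edgeR adjusted p = 0.0269), the latter lost in 5 of 6 fits without a library (adjusted p up to 0.146). Bok was 11.9-fold lower in PV cells (edgeR adjusted p = 0.0274), also lost in 5 of 6 (adjusted p up to 0.0848).

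Relatives and partners of the members, in 10 lists of 132 genes of which 92 were tested, were compared over the same fields. The lists were drawn up with earlier results of these data known, around members chosen by contrasts that involve CA3. Their counts and medians are therefore a description and no test of the lists as sets. Between CA3 and CA1, 25 were higher and 6 lower in CA3 (13.5% of all genes were called, 8.15% higher and 5.34% lower), with a median log2 difference of 0.28 against 0 over all genes. Between CA3 and DG, 35 were higher and 17 lower (36.5% of all genes, 19.6% higher and 16.9% lower), with a median of 0.46 against -0.01. Between dorsal and ventral CA3 7 were higher on each side (4.97% of all genes, 2.5% dorsal and 2.48% ventral), with a median of -0.11 against -0.04. Without ventral CA3 replicate 3 these called genes numbered 26, 47 and 12, and the last of these counts was 8 without dorsal replicate 2, 7 without dorsal replicate 3 and 8 without ventral replicate 1 or 2.

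Around Nectin3, 3 of 12 nectins, nectin-like and junction genes were higher in CA3 than in CA1, led by the nectin-like Cadm3 (log2 difference 1 ± 0.09, edgeR adjusted p = 6.36e-08), which was also higher than in DG (1.76 ± 0.09, edgeR adjusted p = 5.55e-12). Along CA3, Cadm2 was higher in dorsal cells (1.92 ± 0.29, edgeR adjusted p = 0.000245) and Cadm1 in ventral cells (-1.23 ± 0.24, edgeR adjusted p = 0.00312). Of 8 protein kinase C isoforms other than Prkcd, 4 were higher and 1 lower in CA3 than in DG. Against CA1, Prkce was higher (0.78 ± 0.08, edgeR adjusted p = 5.53e-07) and Prkcb lower (-0.69 ± 0.16, edgeR adjusted p = 0.00399), and Prkce was also higher at the dorsal pole (0.63 ± 0.12, edgeR adjusted p = 0.00158).

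Around Vgll3, 2 of 11 tested genes of the TEAD and Hippo list were higher in CA3 than in CA1 and 1 was lower. The kinase Lats2 had 181 ± 21.8 CPM in dorsal CA3 and 87.9 ± 22.8 CPM at the ventral pole, against 40 ± 16.9 and 22.4 ± 2.19 CPM in CA1 (edgeR adjusted p = 5.36e-05) and at most 2.04 CPM in any DG library (edgeR adjusted p = 2.62e-11). Tead1, a binding partner of the vestigial-like proteins, was the only list member called between the poles of CA3, at 115 ± 38.1 CPM in ventral and 31.3 ± 4.48 CPM in dorsal cells (edgeR adjusted p = 0.022). Of the PYHIN family, 2 of 14 were tested. Ifi203, the paralog that overlaps Mndal, had 67.9 ± 22.8 CPM in dorsal CA3 and 29.7 ± 3.96 CPM at the ventral pole, and no more than 5.54 CPM in any CA1 library of either pole (edgeR adjusted p = 3.08e-08).

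Around Cd109, Tgfb2, a TGF-beta ligand, was higher in CA3 than in CA1 (1.75 ± 0.24, edgeR adjusted p = 1.46e-05) and at the dorsal than at the ventral pole, at 278 ± 25.4 against 76.5 ± 14.2 CPM (edgeR adjusted p = 0.00113). The receptor gene Tgfbr1 was lower in CA3, at up to 0.376 CPM in any library, than in CA1 (edgeR adjusted p = 0.000186), and Smad3, which carries the signal, was lower than in DG (-1.97 ± 0.18, edgeR adjusted p = 2.15e-08). Of 11 peptide maturation enzymes around Qpct, 7 were higher and 2 lower in CA3 than in DG. Cpe, carboxypeptidase E, stood at 2380 ± 302 CPM in dorsal CA3 and 85 ± 40.8 CPM in dorsal DG (edgeR adjusted p = 1.21e-13), and the prohormone convertase Pcsk2 was higher at the dorsal pole of CA3 (1.63 ± 0.27, edgeR adjusted p = 0.000548).

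In the Shisa and FGF receptor list, 4 of 9 were higher in CA3 than in CA1 and 1 was lower. Shisa9 alone was called along CA3, at 23 ± 11.3 CPM in ventral and 0.959 ± 0.704 CPM in dorsal cells (edgeR adjusted p = 1.35e-05), the same side as Shisa2. Among relatives of Coch, Crispld1 was higher in CA3 than in CA1 (3.27 ± 0.44, edgeR adjusted p = 1.23e-05) and Matn2 lower (-2.02 ± 0.31, edgeR adjusted p = 7.3e-05). Vit was higher at the dorsal pole, at 7.86 ± 2.68 against 0.0936 ± 0.162 CPM (edgeR adjusted p = 0.0176), and Crispld2 at the ventral pole, at 2.18 ± 1.02 CPM against no read (edgeR adjusted p = 0.0382). Of the BCL2 family around Bok, Bid was higher in CA3 than in DG (3.23 ± 0.57, edgeR adjusted p = 0.000148) and Bcl2l11 than in CA1 (3.59 ± 0.78, edgeR adjusted p = 0.00255). In the Ly6/uPAR list Ly6e led, at 461 ± 77.6 CPM in dorsal CA3 against 109 ± 9.92 CPM in dorsal CA1 (edgeR adjusted p = 9.46e-08), and Ly6h was higher at the ventral pole (edgeR adjusted p = 0.00767).

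For each member the genes with the most similar means over the 16 populations were named, by Pearson's r of log2(CPM + 1), as a description of populations that share libraries and depth. With a pseudocount of 0.1 in place of 1, 6 of the 10 members kept at least 2 of their 3 most similar genes, and with the authors' FPKM 8 did. Prkcd, Mndal and Cd109 had 2 such genes in common, Adgrf5 (r = 0.891, 0.936 and 0.951) and Cpne9 (r = 0.889, 0.956 and 0.931), both highest in dorsal CA3. Nectin3 was most like Gpr158 (r = 0.946) and Cadm3 (r = 0.904), and Bok like Homer3 (r = 0.847). Mndal was also like Ifi203 (r = 0.935). Vgll3 was most like the mossy cell markers Calb2 (r = 0.929) and Csf2rb2 (r = 0.928), both highest in ventral CA3, although both were highest in the ventral library in which Vgll3 was lowest. Coch was most like Fibin (r = 0.848), Qpct like the potassium channel gene Kcna2 (r = 0.901), Shisa2 like Myof (r = 0.883) and Ly6g6e like Cspg4 (r = 0.975).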

How the data were processed

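Manually sorted fluorescent neurons were pooled per library, ERCC spike-in RNA was added and cDNA was amplified with the Ovation RNA-seq v2 kit, per the labels' protocols. The authors deposited raw counts of reads per Ensembl gene and, in a second table, FPKM values per gene and library in Cuffdiff's layout, per the file headers. TopHat2 (2.0.6), Cuffdiff (2.1.1), HTSeq and DESeq2 appear in the submitters' processing notes, beside NCBIM37 and mm9 as genome builds, without the role of each, and the strand used in counting is not given in the sources used here. The 92 ERCC and 5 summary lines were left out of library sizes and tests.

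Counts were fitted with edgeR 4.0.16 in R 4.3.3 (quasi-likelihood F tests, robust dispersion, TMM scaling, filterByExpr), with p-values adjusted by the Benjamini-Hochberg method over all genes tested and a call at an adjusted p under 0.05. Dorsal and ventral CA1, CA3 and DG shared 1 fit of 18 libraries. Dorsal, intermediate and ventral CA1, the amygdala- and accumbens-projecting cells with ventral CA1, and the interneurons with dorsal CA1 shared fits of 9, and the other pairs had 6. CPM used TMM over all 48 libraries. Where a group held no read, the fold was set against 3 reads per library and is a lower bound, and where it held 1 to 3 reads the ratio has a 95% exact binomial interval. Without molecular identifiers both cover counting error only. Count columns all differed from each other, by at least 12.3 in chi-square per degree of freedom for replicate pairs. The replicate numbers used are those of the count table, which run 1 above those of the FPKM table and the labels (the best match for all 48 columns).

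The 10 members, the 10 lists and the tests were chosen with earlier results of these data known. Named genes were the members, the 3 most similar genes per member (of which some are given) among 10268 with a mean of at least 10 CPM in a population, and the genes of smallest p per list, direction and CA3 contrast (of which some are given). On simulated counts, the dorsal-ventral CA1 fit recovered 52% of 2-fold and 90% of 4-fold changes, the DG contrast 22% and 78%, and the PV-SST contrast 10% and 68%. Changes were set only in genes above a minimum mean level, with dispersion from the fitted trend. These shares do not cover members below that level, such as Bok, Coch and Vgll3 in the CA1 fit. Alternatives were other size factors, no filter, the replicate number as a block, a fit of all libraries, DESeq2 1.42.0, leaving out each library and, chosen after seeing the data, a fit of the 12 CA1 and DG libraries alone.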

Additional observations from a re-analysis of the deposited data

Results flagged for a closer look

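For 2 members the dorsal-ventral difference of CA1 differed from that of DG by the interaction test, a comparison added after the data were seen. The values, dorsal-ventral in CA1 minus dorsal-ventral in DG on the log2 scale in the 18-library fit, were 3.03 for Nectin3 and 8.75 for Coch. For Nectin3 every dorsal CA1 library lay above every ventral one and every ventral DG library above every dorsal one. Along CA1 alone neither member was called (edgeR adjusted p = 0.149 for Nectin3 and 0.308 for Coch). For Coch dorsal DG held no read, and its size is a fitted value without a bound. Of all genes, 9.71% were called in that interaction in the 18-library fit, and 7.18% in a fit of the 12 CA1 and DG libraries alone. The fit of 12 tested 4 members and also made both calls (edgeR adjusted p = 0.0216 for Nectin3 and 0.0308 for Coch). In the fit of all 48 libraries Nectin3 kept its call, while the adjusted p was 0.0556 for Coch. Neither call was lost in any of the 12 fits without a library. The other members with a call in the 18-library fit were too low in CA1 and DG to pass the filter without the CA3 libraries, and no test of them is given.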

How the results depend on the processing

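Depth limited members near 1 CPM, since 3 reads per library came to 0.398 CPM in dorsal DG and 0.425 CPM in ventral CA1. No difference called in the main fit or in the alternative changed direction. Changes of sign in differences not called in either were not counted. No described CA3 difference reversed, though for log2 CPM a change of sign within the SD was not counted. Of 976 tests of single members under alternatives, 910 kept their side of the threshold, 43 lost a call and 23 gained it. These tests include members that passed the filter of the 18-library fit only through CA3 libraries. With a fit of all 48 libraries the number of members called was 1 between dorsal and ventral CA1, 2 between dorsal and ventral DG (4 in the fit of 18, where 5 of 9 members tested passed the filter only through CA3 libraries), 1 between proximal and distal CA1 and 1 between postsubiculum-projecting and dorsal CA1, and of relatives 7 between dorsal and ventral CA3. With DESeq2 it was 1 between superficial and deep CA1, 1 between postsubiculum-projecting and dorsal CA1 and 5 between PV and SST cells. Without 1 library the counts ran from 0 to 1 between dorsal and ventral CA1, from 0 to 1 (without postsubiculum-projecting replicate 1) between postsubiculum-projecting and dorsal CA1 and, for relatives, from 7 to 12 between dorsal and ventral CA3. Libraries with the same replicate number did not deviate together (correlations of -0.06 to 0.06), so no pairing by number was seen in these values. Such correlations cannot show whether these libraries shared animals or a preparation. With the replicate block 1 member was called between dorsal and ventral CA1 and the other counts stayed within 1.5 times. The cause of these changes was not tested. No share of all genes called under the same setting is given beside these counts, which are no result about the members. The fit of all 48 libraries also kept the CA3 libraries in its filter, in every contrast.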
